A study of Mus musculus with 135 samples.

Results

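Nr5a2, Esrrb, Rarg, Nr1h3 and Nr2c2 are 5 mouse genes that encode nuclear receptors. They were taken by name from the 24116 gene names of 7 expression tables, which also hold every gene of a list of 49 nuclear receptors. Nuclear receptors are transcription factors that grip DNA with zinc fingers, and many of them are switched by a fat-soluble ligand. NR5A2 (LRH-1) and ESRRB bind as single molecules to extended AGGTCA-type sites and belong to the transcription network of pluripotent cells. NR5A2 is also known as an activator of early mouse embryo genes. RARG is a receptor for retinoic acid, and NR1H3 (LXR alpha) is a receptor for oxysterols that switches on lipid and cholesterol genes. Both work as partners of a retinoid X receptor. NR2C2 (TR4) is an orphan receptor that binds direct repeats of the same site.

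The study concerns Obox, a family of mouse homeobox transcription factors of the oocyte and early embryo, and zygotic genome activation, the start of transcription by the embryo itself. RNA was measured by Smart-seq2, a method for very little starting RNA, in 107 of the 135 samples, and the other 28 samples were not analysed here. The unit is FPKM, a fragment count scaled by transcript length and library size, so that levels can be compared between genes.

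The knockout series held Obox knockout (Obox KO) full-grown oocytes and MII (mature) oocytes, with 2 libraries each, against wild-type oocytes of both kinds with 2 libraries each. It also held embryos without Obox in both oocyte and embryo (Obox mzKO) at the early 2-cell stage (n = 2), the late 2-cell stage (n = 3), the time at which controls were at the 4-cell stage (n = 3) and the time of the blastocyst (n = 2). The last of these are titled as blastocysts but their source is given as arrested 2-cell embryos, and they are called arrested embryos below. Wild-type embryos were at the early 2-cell (n = 2), late 2-cell (n = 3), 4-cell (n = 3) and blastocyst (n = 2) stages. Another set compared late 2-cell embryos without Obox in the oocyte (Obox mKO) with wild type (n = 2 each). The set of single embryos compared Obox-- with Obox+- embryos at the early 2-cell (n = 3 each) and late 2-cell stage (n = 4 against 3), so that its controls also lacked 1 copy of the locus, and the parents' genotypes are not given. The knockdown set used small interfering RNAs (siRNA, 25 uM each) against Obox genes, injected into oocytes that became parthenotes (mKD, embryos without a father) or into zygotes (zKD), with a control siRNA in wild-type background. Mouse embryonic stem cells (ESCs) kept in 2i medium, which holds cells in the naive pluripotent state, overexpressed Obox3 (n = 4) or Obox5 (n = 4), against GFP (n = 5). A further ESC set crossed Nr5a2 KO or wild type with Obox3, Obox5 or GFP (n = 2 each). Wild-type embryos injected with Obox1, Obox2, Obox3, Obox5 or water, rescued mzKO embryos and a few other groups had 1 library each, 17 in all, and enter no test. The labels give no strain, no vector, no clone and no age. Nothing in them says that replicates came from separate cultures or collections, so p-values measure the spread between these libraries, which may be technical.

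Differences were tested with limma on log2(FPKM + 1), all replicated groups of a table in 1 fit. A gene was tested if at least 2 libraries of its table reached 1 FPKM. It was called changed at a Benjamini-Hochberg adjusted p under 0.05, taken over every tested gene, with a log2 fold change of at least 1 in size. Fold changes on this scale understate the change of genes near 0 FPKM. "Rose" and "fell" are used below for called differences alone. Whether the libraries of 2 groups overlap is given as a description. The share of all genes without overlap was not computed. Nr5a2, Rarg, Nr1h3 and Nr2c2 passed the filter in every table tested. Esrrb passed it in the ESC tables but not in the embryo tables.

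Obox transcripts were measured as a check of the labels. Summed over 66 Obox names, mzKO embryos had 1.77 to 13.2 FPKM at the early 2-cell stage against 3842 to 5573 FPKM in wild type. At the late 2-cell stage they had 75.4 to 105 FPKM against 991 to 1121 FPKM in wild type. At the 4-cell time they had 19.6 to 214 FPKM against 270 to 1106 FPKM in wild-type 4-cell embryos. In arrested embryos the sum was 0.412 to 73.8 FPKM, which overlaps the 3.4 to 8.2 FPKM of wild-type blastocysts. Obox copies are near-identical, so reads may be split between them. In Obox-- single embryos the sum was lower at the late 2-cell stage (285 to 342 FPKM, against 515 to 703 FPKM in Obox+-) but overlapped at the early 2-cell stage (467 to 768 FPKM against 478 to 558 FPKM). In the mKO set it was 529 to 571 FPKM in mKO against 1007 to 1347 FPKM in wild type. Per library, 2167 to 10583 genes reached 1 FPKM, and the lowest numbers were in arrested embryos (2167 to 3979), where the ribosomal precursor Rn45s took 55.4% to 71.5% of all FPKM. The share of Rn45s was also higher in mzKO embryos at the 4-cell time (6.31% to 8.10%) than in wild-type 4-cell embryos (3.35% to 5.86%). All 7 oocyte markers reached 1 FPKM in wild-type full-grown oocytes and 0 of 7 did in wild-type blastocysts. In bulk RNA, fewer cells of a type and less RNA per cell cannot be told apart.

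The promoters of Nr5a2 and Nr1h3 are shown because these genes carry the results below. Nr5a2 was the most abundant receptor transcript of wild-type 4-cell embryos. Nr1h3 was called lower in all 4 comparisons of Obox knockout with its control from the late 2-cell stage on. The calls in mKO and in single embryos were lost under several alternatives, and no knockdown called it. Both sequences are from RefSeq on GRCm38.p6, a build other than the mm9 of the submitters' notes. Capitals mark the motif. For Nr5a2 the motif is AGGTCA, the half-site of many nuclear receptors, in the 250 bases before a transcript start (chr1:136960449-136960698, minus strand). For Nr1h3 it is GGATTA, the reverse complement of TAATCC, a core bound by homeodomains of the Otx type, shown with its flanks (chr2:91195073-91195102, minus strand).
Nr5a2: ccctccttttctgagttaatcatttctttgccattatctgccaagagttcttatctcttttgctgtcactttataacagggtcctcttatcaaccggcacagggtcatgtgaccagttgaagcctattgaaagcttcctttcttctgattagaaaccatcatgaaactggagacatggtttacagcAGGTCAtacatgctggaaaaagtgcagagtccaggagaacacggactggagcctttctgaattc
Nr1h3: tggaggctgctgGGATTAgggtgggggtga
Both strands of 9 promoter windows of 300 bases, covering the 5 genes' RefSeq starts, were searched. The motifs were TAATCC, then the half-site AGGTCA of nuclear receptors, and then TCAAGGNCA, the extended site of NR5A2 and ESRRB, and hits of 1 motif could overlap those of another. TAATCC was found in 2 of the 9 windows, both of Nr1h3, and these overlap and share 1 site. Over all 32851 windows of that length 7.06% hold it. AGGTCA was found in 2 of 9, 1 of Nr5a2 and 1 of Rarg, against 16.3% of all windows. TCAAGGNCA was found in none of the 9, against 1.62% of all. A match is a description of these letters and not a binding site.

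In wild type, 4 of the 5 genes came on together between the early and the late 2-cell stage. Nr5a2 was detectable in oocytes, at 1.66 and 0.430 FPKM in full-grown oocytes, 1.44 and 2.09 FPKM in MII oocytes and 2.88 and 0.851 FPKM in early 2-cell embryos. It then stood at 26.8, 18.6 and 21.6 FPKM in late 2-cell embryos and at 50.5, 57.3 and 17.3 FPKM in 4-cell embryos. In blastocysts it was at 4.24 and 5.13 FPKM. The late 2-cell and 4-cell libraries overlapped each other and lay above every earlier and later library. From the early to the late 2-cell stage Nr5a2 rose by 3.11 on the log2 scale (22.3 ± 4.17 FPKM at the late stage, n = 3, against 1.87 ± 1.44 FPKM at the early stage, n = 2, SD; limma adjusted p = 6.24e-05), where 37.4% of all tested genes were called and the median log2 fold change of all genes was 0.72.

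Rarg, Nr1h3 and Nr2c2 had less RNA than Nr5a2 before that step. Rarg was at 0 to 0.704 FPKM in the 6 wild-type oocyte and early 2-cell libraries, and then at 10.0, 14.1 and 13.1 FPKM in late 2-cell and 12.7, 18.6 and 9.79 FPKM in 4-cell embryos. Nr2c2 was at 0 to 0.776 FPKM in the same 6 libraries and at 12.9, 14.1 and 13.8 FPKM in late 2-cell and 26.2, 29.4 and 15.4 FPKM in 4-cell embryos. Nr1h3 was at 0 to 0.200 FPKM there, then at 15.0, 5.60 and 3.40 FPKM in late 2-cell and 21.9, 21.3 and 14.0 FPKM in 4-cell embryos. For all of them the late 2-cell libraries lay above all 6 earlier ones. Rarg rose by 3.28 on the log2 scale from the early to the late 2-cell stage (adjusted p = 9.12e-06). Nr2c2 rose by 3.20 (adjusted p = 2.72e-06). Nr1h3 rose by 2.82 (adjusted p = 2.01e-06) and was the most variable among late 2-cell libraries (8.01 ± 6.18 FPKM, SD, n = 3).

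At the 4-cell stage Nr1h3 was the member called, and by the blastocyst all of the 4 genes had fallen. Nr1h3 rose again in 4-cell against late 2-cell embryos (19.1 ± 4.40 FPKM against 8.01 ± 6.18 FPKM, SD, n = 3 each; log2 fold change 1.35, adjusted p = 0.00807, with 13.1% of genes called). That call was lost without late 2-cell replicate 3 (0.94, adjusted p = 0.0951) and with a pseudocount of 0.1 (1.48, adjusted p = 0.166). Nr5a2 (0.72, adjusted p = 0.372), Nr2c2 (0.71, adjusted p = 0.245) and Rarg (0.10, adjusted p = 0.932) were not called. In blastocysts against 4-cell embryos all of these genes fell, where 28.3% of genes were called. Nr1h3 fell by 4.08 on the log2 scale to 0.184 and 0.144 FPKM (adjusted p = 1.68e-09). Nr2c2 fell by 3.46 (adjusted p = 5.08e-07), Rarg by 3.08 (adjusted p = 2.04e-05) and Nr5a2 by 2.75 (adjusted p = 0.000344). None was called in MII against full-grown oocytes (25.1% of genes called) or in early 2-cell embryos against MII oocytes (21.6% called).

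Esrrb stayed below 1 FPKM in every library of the knockout series, wild type and mutant (0.0461 to 0.868 FPKM), so its onset was not detectable in these stages. In the knockdown set a 4-cell library with siRNA against Obox8 stood at 4.17 FPKM, and the other of that group at 0.292 FPKM. The order of mean levels in wild-type 4-cell embryos was Nr5a2, Nr2c2, Nr1h3, Rarg and Esrrb. Nr2c2, Nr1h3 and Rarg overlap their neighbours in that order, as do Nr5a2 and Nr2c2, and Esrrb alone lies apart.

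**Figure D1:**
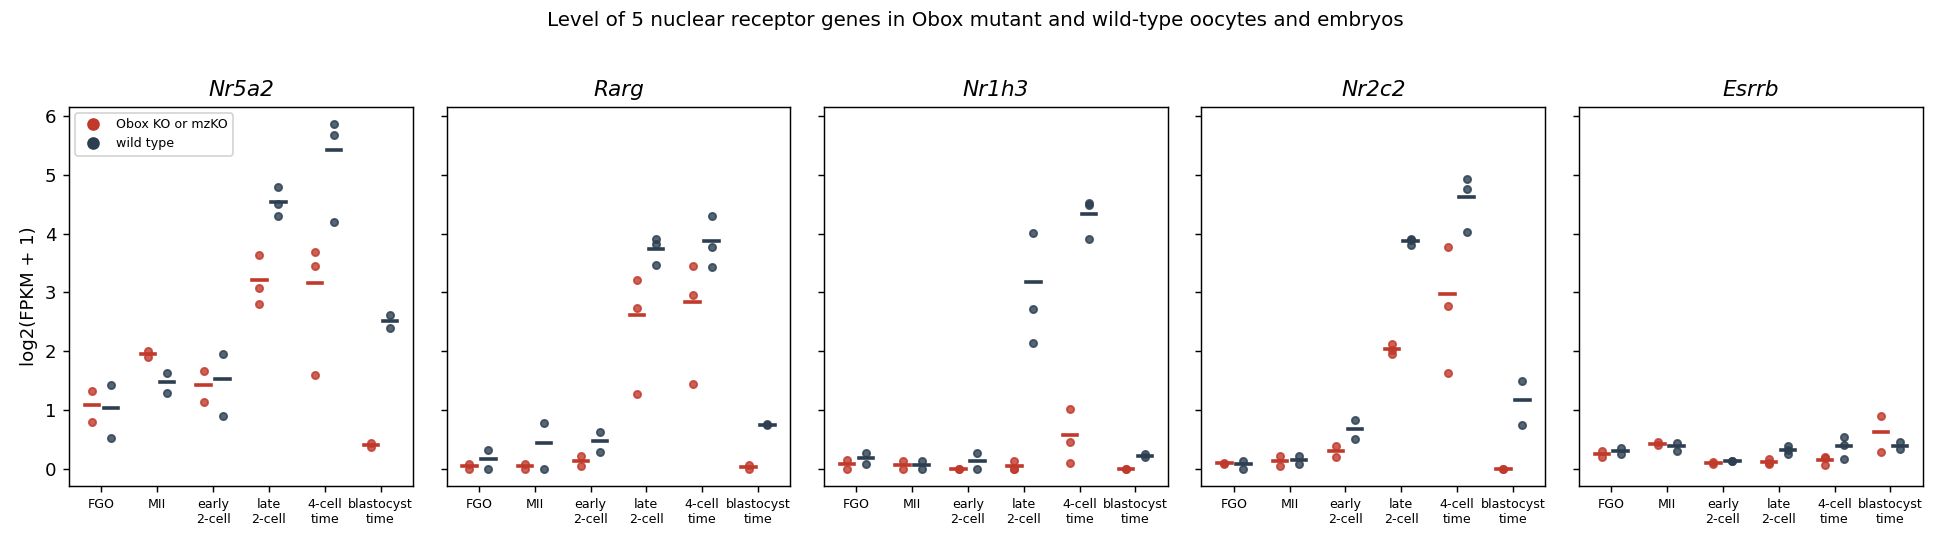
Expression of the 5 receptor genes as log2(FPKM + 1) in oocytes and embryos, Obox KO or mzKO (red, left) beside wild type (dark, right) at each stage, with points for libraries and bars for the group mean. Nr5a2, Rarg and Nr2c2 appear in mzKO embryos at lower levels than in wild type, Nr1h3 stays near 0 in mzKO embryos, and Esrrb stays near 0 throughout.

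Among all 49 receptors, Nr5a2 moved to the front as the embryo's own transcription began. It ranked number 8 among receptors in wild-type full-grown oocytes, with 1.42% of their summed 73.5 FPKM, and number 14 in MII oocytes, with 1.07% of 164 FPKM, and Esr2, estrogen receptor beta, led in both. At the late 2-cell stage Nr5a2 ranked number 2 with 18.3% of 122 FPKM, and at the 4-cell stage number 1 with 30.2% of 138 FPKM. From the early to the late 2-cell stage 27 of the 49 receptors were tested, 7 rose and 2 fell (33.3%, against 37.4% of all genes), and their median log2 fold change was 0.22 against 0.72 for all genes. Beside the 4 genes above, the risers at 5 FPKM or more were Nr1d2, a circadian repressor (7.15 FPKM at the late stage against 0.945 FPKM at the early stage), Nr1h2, which encodes LXR beta (10.4 against 2.83 FPKM), and Nr6a1, germ cell nuclear factor (23.6 against 10.3 FPKM). The receptors that fell were Nr2e1, known for neural stem cells (2.92 FPKM at the late stage against 13.1 FPKM at the early stage), and Esr2 (3.93 against 13.5 FPKM).

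Before the onset no member was called in embryos or oocytes without Obox. None was called in Obox KO against wild-type oocytes, where 0.0715% of genes were called in full-grown and 0.0572% in MII oocytes. None was called in mzKO against wild-type early 2-cell embryos (0.4% called), where Nr5a2 was at 2.17 and 1.20 FPKM in mzKO embryos and at 2.88 and 0.851 FPKM in wild type. Replicate 2 of these wild-type embryos had 5539 genes at 1 FPKM or more, against 8990 in replicate 1. In mzKO embryos replicate 2 had 7128 and replicate 1 had 9054. The same wild-type libraries enter the onset comparison.

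At the late 2-cell stage, Nr1h3, Nr2c2 and Rarg fell in mzKO embryos, where 15.5% of all tested genes were called and the median of all genes was 0.01. Nr1h3 was listed at 0, 0 and 0.0902 FPKM in mzKO embryos, against 15.0, 5.60 and 3.40 FPKM in wild type (log2 fold change -2.91, adjusted p = 4.88e-07). Nr2c2 was at 3.03, 2.86 and 3.34 FPKM in mzKO embryos, against 12.9, 14.1 and 13.8 FPKM in wild type (-1.84, adjusted p = 0.00126). Rarg was at 1.40, 8.23 and 5.67 FPKM in mzKO embryos, against 10.0, 14.1 and 13.1 FPKM in wild type (-1.33, adjusted p = 0.0361). The groups do not overlap for any of these genes. Summed 2-cell markers overlapped, at 163 to 246 FPKM in these mzKO embryos against 61.8 to 167 FPKM in wild type. Other sums did not overlap: ESC markers stood at 92.0 to 117 FPKM in mzKO embryos against 286 to 359 FPKM in wild type, trophectoderm markers at 13.8 to 19.7 FPKM against 1.53 to 2.47 FPKM, and primitive endoderm markers at 5.07 to 7.98 FPKM against 15.8 to 19.6 FPKM. Their part in the result was not tested. The Rarg call is close to the threshold and was lost without mzKO replicate 1 (-0.76, adjusted p = 0.239), without mzKO replicate 3 (-1.50, adjusted p = 0.0507) and without any 1 of the wild-type libraries (-1.47 to -1.24, adjusted p = 0.0592 to 0.102).

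Nr5a2 was lower in mzKO late 2-cell embryos in each library without reaching the call. It was at 7.46, 5.94 and 11.4 FPKM in mzKO embryos, against 26.8, 18.6 and 21.6 FPKM in wild type. All mzKO libraries lay below all wild-type libraries, and the mzKO mean was 2.71-fold lower (8.25 ± 2.80 FPKM against 22.3 ± 4.17 FPKM, SD, n = 3 each). The log2 fold change was -1.36 (95% confidence interval -2.41 to -0.31, on the 16 residual degrees of freedom alone) with an adjusted p of 0.0552. It passed when the fit held the compared groups alone (adjusted p = 0.0162) and with a replicate block (adjusted p = 0.00203). Same-numbered libraries of these groups correlated at r = 0.07 to 0.33, and no label says that they are pairs.

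At the time of the 4-cell stage Nr5a2 fell as well, and 24.6% of all tested genes were called (median of all genes 0.16). It was at 11.95, 9.86 and 2.01 FPKM in mzKO embryos, against 50.5, 57.3 and 17.3 FPKM in wild type, so the groups do not overlap. The mzKO mean was 5.25-fold lower (7.94 ± 5.24 FPKM against 41.7 ± 21.4 FPKM, SD, n = 3 each; log2 fold change -2.34, adjusted p = 0.00107). Replicate 3 of both groups stood low. Without both of these libraries the value was -2.21 (adjusted p = 0.00214), an alternative chosen after seeing the data.

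The other members stayed low at that time. Nr1h3 was at 0.0663, 0.372 and 1.01 FPKM in mzKO embryos, against 21.9, 21.3 and 14.0 FPKM in wild type, a 39.4-fold lower mean (-3.78, adjusted p = 8.09e-09). Nr2c2 was at 12.6, 5.80 and 2.08 FPKM in mzKO embryos, against 26.2, 29.4 and 15.4 FPKM in wild type (-1.86, adjusted p = 0.000978). Rarg was at 6.73, 9.93 and 1.70 FPKM in mzKO embryos, against 12.7, 18.6 and 9.79 FPKM in wild type (-1.22, adjusted p = 0.0399). The Nr1h3 and Nr2c2 groups do not overlap, while the Rarg groups do. The Rarg call was lost without mzKO replicate 3 (-0.63, adjusted p = 0.330), without wild-type replicate 1 (-1.25, adjusted p = 0.0818) and without wild-type replicate 2 (-0.99, adjusted p = 0.162). Beside these falls, summed embryonic stem cell markers stood at 36.9 to 102 FPKM in mzKO embryos against 370 to 762 FPKM in wild-type 4-cell embryos. Summed 2-cell markers stood at 48.7 to 515 FPKM against 35.6 to 101 FPKM, and oocyte markers at 144 to 418 FPKM against 100 to 154 FPKM. Summed trophectoderm markers stood at 9.98 to 41.8 FPKM against 0.961 to 1.93 FPKM. Their part in the result was not tested.

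**Figure D2:**
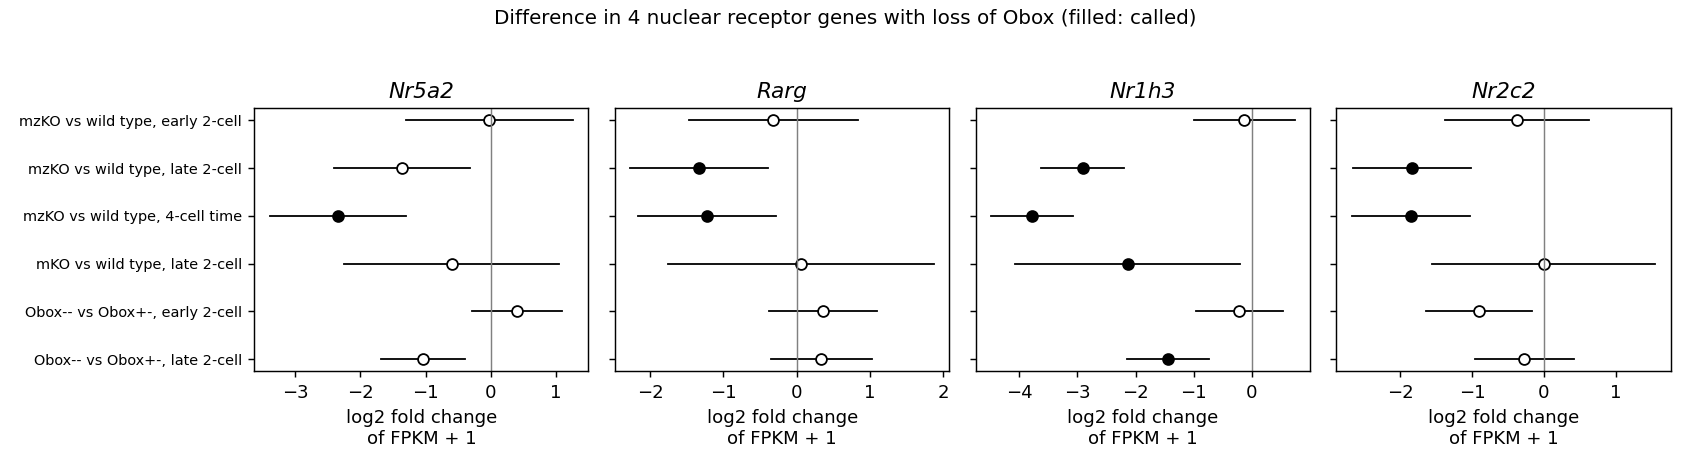
Log2 fold change with its 95% confidence interval for Nr5a2, Rarg, Nr1h3 and Nr2c2 in each loss of Obox: mzKO with wild type (the early and the late 2-cell stage and the 4-cell time), mKO with wild type (late 2-cell stage), and Obox-- with Obox+- single embryos (both 2-cell stages). Intervals use the residual degrees of freedom alone (16 for mzKO, 2 for mKO and 9 for single embryos). They are therefore wider than the limma p-values imply, most of all for mKO. Filled points are called differences, and Nr1h3 is called in all 4 comparisons from the late 2-cell stage on. Its calls in mKO and in Obox-- embryos were lost under several alternatives.

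Followed over time in mzKO embryos, Rarg, Nr2c2 and Nr5a2 still rose. From the early to the late 2-cell stage of mzKO embryos, where 19.9% of genes were called, Rarg rose by 2.27 on the log2 scale (5.10 against 0.0990 FPKM, adjusted p = 0.00173). Nr2c2 rose by 1.74 (3.08 against 0.225 FPKM, adjusted p = 0.00524) and Nr5a2 by 1.77 (8.25 against 1.68 FPKM, adjusted p = 0.0223). Nr1h3 did not (0.04, adjusted p = 0.967). The Nr5a2 rise was lost without either early 2-cell mzKO library (2.03 and 1.51, adjusted p = 0.0511 and 0.201) and without late 2-cell mzKO replicate 3 (1.54, adjusted p = 0.0825). The Nr2c2 rise was lost without early 2-cell mzKO replicate 2 (1.65, adjusted p = 0.0708). From the late 2-cell stage to the 4-cell time of mzKO embryos no member was called (6.12% of genes called).

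The test of the difference between mzKO and wild type in the step from the early to the late 2-cell stage called Nr1h3 alone among the members (-2.78, adjusted p = 0.00528), where 1.88% of genes were called. With a pseudocount of 0.1 it was -4.97 (adjusted p = 0.0558). The same test gave -1.34 for Nr5a2 (adjusted p = 0.513), -1.47 for Nr2c2 (adjusted p = 0.273) and -1.01 for Rarg (adjusted p = 0.608). For the step from the late 2-cell stage to the 4-cell time no member was called (1.17% of genes called). Against wild-type late 2-cell embryos, which are earlier in time, mzKO embryos of the 4-cell time still had lower Nr1h3 (-2.44, adjusted p = 1.19e-05) and Nr5a2 (-1.62, adjusted p = 0.0295), where 10.6% of genes were called. This Nr5a2 call was lost without mzKO replicate 3 (-0.96, adjusted p = 0.254) and without any 1 of the wild-type libraries (-1.74 to -1.49, adjusted p = 0.0536 to 0.112). It was also lost with equal 75th percentiles (-1.21, adjusted p = 0.0632) and with Rn45s left out and FPKM sums made equal (-1.27, adjusted p = 0.0860). The compared groups alone (-1.62, adjusted p = 0.0922) and a pseudocount of 0.1 (-1.81, adjusted p = 0.0987) lost it too.

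In arrested mzKO embryos all of these transcripts were below 1 FPKM, in the libraries with the fewest detected genes and the highest Rn45s share, so that absence cannot be read from them. Nr5a2 was at 0.291 and 0.352 FPKM, Rarg at 0 and 0.0437 FPKM, and Nr1h3 and Nr2c2 were listed at 0 in both libraries. Against mzKO embryos of the 4-cell time, 61.5% of genes were called with a median of -1.52 over all genes. Nr5a2 was called at -2.51 (adjusted p = 0.000307), which became -0.81 (adjusted p = 0.188) once Rn45s was left out and FPKM sums were made equal. Among rescued mzKO embryos (1 library each), Nr5a2 was at 3.78 FPKM with Obox1, Obox5 and Obox7 together and at 5.86 FPKM with Obox3, both labelled blastocysts, and at 1.75 FPKM with Obox4, labelled arrested 2-cell embryos. Wild-type blastocysts had 4.24 and 5.13 FPKM. Each Obox gene named in a rescue label was listed at 0 FPKM in its own library, so RNA at this time does not bear out the labels. In arrested embryos without rescue, Obox3 was at 59.7 and 0 FPKM.

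In Obox mKO late 2-cell embryos Nr1h3 was the member called. It was at 2.35 and 1.20 FPKM in mKO embryos, against 7.97 and 14.9 FPKM in wild type (-2.14, adjusted p = 0.0314). Here 12.9% of genes were called and the median of all genes was -0.48, which rescaling moved by 0.58 (Rn45s left out and FPKM sums made equal) and 0.52 (equal 75th percentiles). Under both rescalings the Nr1h3 call was lost (-1.59 and -1.64, adjusted p = 0.107 and 0.103), and it was lost without either wild-type library (-2.55 and -1.72, adjusted p = 0.0728 and 0.271). Nr5a2 was at 14.4 and 12.8 FPKM in mKO embryos against 16.0 and 27.8 FPKM in wild type, without overlap and without a call (-0.60, adjusted p = 0.313). Rarg (0.06) and Nr2c2 (-0.00) had nearly equal means in both groups.

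Nr1h3 was also the member called in single embryos. At the late 2-cell stage Nr1h3 was at 2.82, 0.282, 1.18 and 0.617 FPKM in Obox-- embryos, against 4.40, 3.72 and 5.65 FPKM in Obox+- embryos (-1.44, adjusted p = 0.0367, with 0.632% of genes called). The groups do not overlap. The call was lost without any 1 of the Obox+- libraries and without Obox-- replicate 2, 3 or 4 (-1.56 to -1.22, adjusted p = 0.0556 to 0.141). With a replicate block it was lost too (-1.33, adjusted p = 0.110), where same-numbered libraries correlated at r = 0.03 to 0.23. Nr5a2 was at 42.6, 39.3, 34.1 and 24.9 FPKM in Obox-- embryos, against 83.0, 63.2 and 71.5 FPKM in Obox+- embryos. These groups do not overlap either, but Nr5a2 was not called (-1.04, adjusted p = 0.110).

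Rarg and Nr2c2 did not show a fall in these single embryos. Rarg was at 30.6, 30.5, 29.6 and 40.6 FPKM in Obox-- embryos, against 27.0, 21.6 and 28.6 FPKM in Obox+- embryos (0.34, adjusted p = 0.691), so that all Obox-- values are the higher ones. Nr2c2 averaged 14.0 ± 4.86 FPKM in Obox-- embryos and 16.8 ± 4.83 FPKM in Obox+- embryos (SD, n = 4 and 3; -0.27, adjusted p = 0.769). At the early 2-cell stage no member was called (0.461% of genes called). Nr2c2 was at 0.758, 1.47 and 0.693 FPKM in Obox-- embryos there, against 1.95, 2.74 and 3.36 FPKM in Obox+- embryos (-0.90, adjusted p = 0.265).

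All 4 genes rose between these stages in both genotypes. In Obox-- embryos, where 50.6% of genes were called, Nr5a2 rose by 2.68 (35.2 FPKM at the late stage against 4.77 FPKM at the early stage), Rarg by 3.20, Nr2c2 by 2.88 and Nr1h3 by 1.03. In Obox+- embryos, where 49.3% were called, Nr5a2 rose by 4.12 (72.6 against 3.33 FPKM), Rarg by 3.22, Nr2c2 by 2.25 and Nr1h3 by 2.25. The Nr1h3 rise in Obox-- embryos (adjusted p = 0.00779) fell under the fold threshold without Obox-- late 2-cell replicate 1 (0.73) or replicate 3 (0.99).

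Knockdown of single Obox genes, or of Obox1 and Obox2 together, left Nr5a2, Rarg, Nr1h3 and Nr2c2 uncalled, each at an adjusted p of 1. The targeted transcript was lower in each knockdown: Obox5, for example, was at 9.30 and 2.31 FPKM with its siRNA, against 818, 367 and 618 FPKM with control siRNA. Called genes made up 0.0233% of those tested for the mix against Obox1 and Obox2, 0.0233% for Obox5 and 0.00776% for Obox7 in parthenotes. In zygote-injected embryos they made up 0.00776% for Obox4, 0.0699% for Obox6 and 0% for Obox8. The test thus missed Obox8 itself, which was at 21.2 and 3.23 FPKM with its siRNA. With control siRNA Obox8 was at 62.8, 238 and 102 FPKM. Members left uncalled by these tests cannot be read as unaffected. Nr5a2 was at 4.77 and 11.8 FPKM with the siRNA against Obox5, against 5.63, 10.6 and 9.65 FPKM with control siRNA in late 2-cell parthenotes. At the 4-cell stage it was at 23.4 and 44.8 FPKM with the siRNA against Obox6, and at 37.9 and 15.9 FPKM with the one against Obox8, against 27.5, 43.2 and 19.1 FPKM with control siRNA. Replicates of 1 group differed by more than the groups did. With 1 library each, Nr5a2 was at 5.98 FPKM with the siRNA against Obox3 and at 9.85 FPKM with control siRNA in late 2-cell embryos. Nr1h3 was barely on in the late 2-cell parthenotes, with 0.0673, 0.236 and 1.01 FPKM under control siRNA.

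Embryos injected with Obox RNA had 1 library each and give values without a test. At the late 2-cell stage Nr5a2 was at 5.23 FPKM with Obox1, 15.0 with Obox2, 13.1 with Obox3 and 12.4 with Obox5, against 11.9 FPKM with water. Nr2c2 was at 2.83 FPKM with Obox1, 15.6 with Obox2, 14.6 with Obox3 and 13.4 with Obox5, against 14.8 FPKM with water. Nr1h3 was at 0.0577 FPKM with Obox1, 2.36 with Obox2, 1.74 with Obox3 and 0.892 with Obox5, against 2.09 FPKM with water. The Obox1 library is the low one for all these genes. It had 533 FPKM of Obox1 against 12.9 FPKM with water, and 12.4% of its FPKM came from Rn45s against 6.24% with water.

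In ESCs, Nr1h3 rose with Obox3. It was at 1.62, 3.32, 4.72 and 1.63 FPKM with Obox3, against 0, 0.0551, 0.410, 0 and 0 FPKM with GFP (2.82 ± 1.50 FPKM, n = 4, against 0.0931 ± 0.179 FPKM, n = 5, SD; log2 fold change 1.74, adjusted p = 0.00126). The groups do not overlap, and 3.02% of genes were called. With Obox5, Nr1h3 was at 0.165, 0.604, 2.20 and 1.72 FPKM, which overlaps the GFP libraries (0.89, adjusted p = 0.191, with 2.18% of genes called). Both comparisons use the same GFP libraries. Set against each other directly, Obox3 and Obox5 cells differed in 0.107% of genes and not by the call in Nr1h3 (0.85, adjusted p = 1.00).

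Rarg depended on whether replicate numbers were taken into account. It was at 9.92, 10.1, 10.8 and 19.7 FPKM with Obox3 and at 9.72, 7.80, 6.31 and 23.0 FPKM with Obox5, against 2.58, 1.83, 4.24, 6.13 and 9.97 FPKM with GFP. Replicate 4 was high in both overexpression groups, and replicates 4 and 5 were the highest with GFP. Rarg was not called in the fit without a replicate block (Obox3 1.31, adjusted p = 0.116, and Obox5 1.10, adjusted p = 0.278). With replicate number as a block it was called for both Obox3 (1.57, adjusted p = 0.000123) and Obox5 (1.36, adjusted p = 0.000795). It was also called for Obox3 without GFP replicate 5 (1.57, adjusted p = 0.0458). With the block Nr1h3 was at 1.71 for Obox3 (adjusted p = 0.000107) and at 0.86 for Obox5 (adjusted p = 0.0328), the second under the fold threshold. The block called 5.93% of genes for Obox3 and 4.25% for Obox5.

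Nr5a2, Esrrb and Nr2c2 did not respond by the call in these cells. Nr5a2 averaged 2.01 ± 0.649 FPKM with Obox3 and 2.74 ± 0.423 FPKM with Obox5, against 2.78 ± 0.322 FPKM with GFP (SD, n = 4, 4 and 5). Esrrb averaged 1.62 FPKM with Obox3 and 1.20 FPKM with Obox5, against 2.41 FPKM with GFP (-0.41 and -0.62, adjusted p = 0.697 and 0.420). These Esrrb levels are low for a gene of the naive pluripotency network, in libraries in which all 6 of 6 other ESC markers reached 1 FPKM. Nr2c2 averaged 2.51 FPKM with Obox3 and 2.79 FPKM with Obox5, against 2.81 FPKM with GFP. Obox3 and Obox5 were themselves high in their own cells: Obox3 was at 1318, 2596, 1857 and 760 FPKM with Obox3, against 0 to 37.2 FPKM with GFP.

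**Figure D3:**
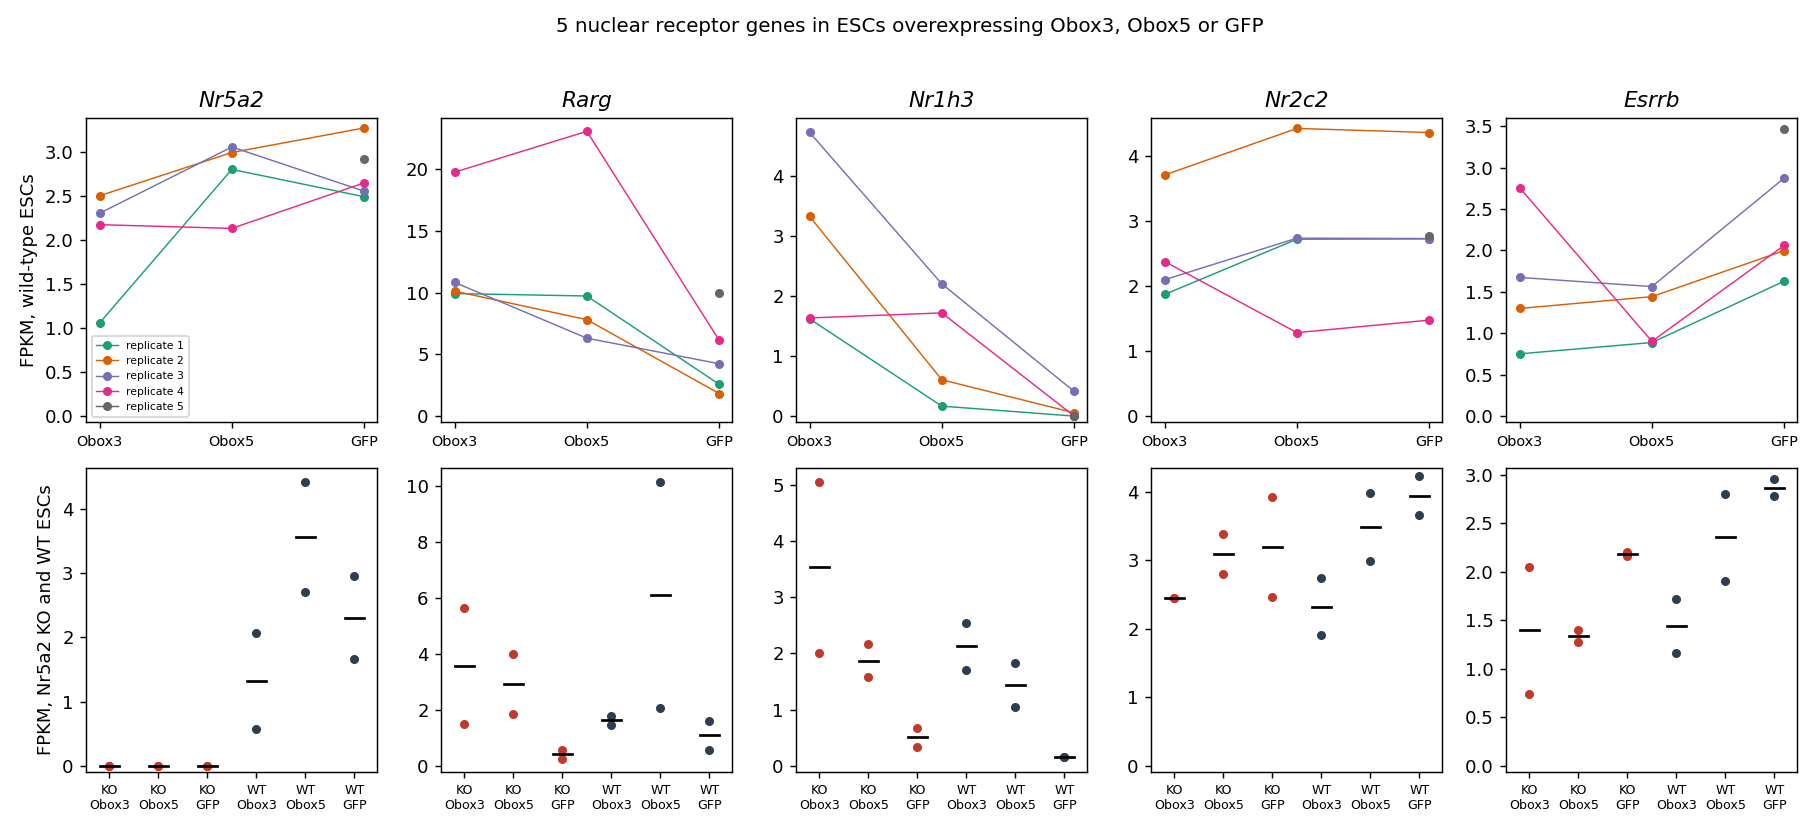
FPKM of the 5 receptor genes in ESC libraries. In the upper panels are Obox3, Obox5 and GFP cells, with lines joining equal replicate numbers, and in the lower panels Nr5a2 KO and then wild-type cells with Obox3, Obox5 or GFP, with black bars for means. Nr1h3 is above all GFP libraries in all 4 Obox3 libraries, and Nr5a2 is near 0 in the 6 Nr5a2 KO libraries alone.

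Nr5a2 KO cells had almost no Nr5a2 signal, with at most 2e-06 FPKM in all 6 libraries, against 1.66 and 2.95 FPKM in wild-type cells with GFP. Its loss moved no other member by the call. In KO against wild-type cells with GFP, 2.04% of genes were called. Rarg was at 0.578 and 0.241 FPKM in KO cells, against 1.59 and 0.577 FPKM in wild type (-0.53). Nr1h3 was at 0.682 and 0.330 FPKM in KO cells, against 0.164 and 0.150 FPKM in wild type (0.37), with the KO libraries the higher ones. Esrrb averaged 2.18 FPKM in KO cells and 2.87 FPKM in wild type (-0.28), and Nr2c2 averaged 3.19 FPKM in KO cells and 3.94 FPKM in wild type (-0.26).

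Apart from Nr5a2 itself, the receptor called lower in Nr5a2 KO cells was Nr0b1 (DAX1), a receptor without a DNA-binding domain that is known as an NR5A2-linked gene in ESCs. It averaged 9.26 ± 1.15 FPKM in KO cells and 54.1 ± 2.69 FPKM in wild-type cells (SD, n = 2 each; log2 fold change -2.43, adjusted p = 0.00687). Of 19 receptors tested 2 fell, Nr0b1 and Nr5a2 itself, and none rose. Without replicate 1 of the KO cells with GFP no receptor was called, so the Nr0b1 call was lost there too. Without replicate 1 of the wild-type cells with GFP 1 receptor was called in place of 2. That receptor was Nr5a2, so the Nr0b1 call was lost with this library left out as well. The call of Nr5a2 itself (-1.70, adjusted p = 0.0209) was lost without either KO library (adjusted p = 0.102 and 0.108) and without wild-type replicate 2 (-1.41, adjusted p = 0.222). In the other gene lists, which are described below, 2 of 9 retinoid genes tested fell and none rose (22.2%, against 2.04% of all genes). Of 11 LXR targets 1 rose and none fell (9.09%). Of 18 embryo and ESC regulators 1 rose and 1 fell (11.1%). No coregulator and no steroid or bile acid gene was called. Crabp2, a retinoic acid carrier, fell (0.380 FPKM in KO cells against 7.53 FPKM in wild type, -2.63, adjusted p = 0.00393). Zfp42, a naive pluripotency marker, rose (283 against 69.2 FPKM, 1.96, adjusted p = 0.0409), and so did Lpl, lipoprotein lipase (12.8 against 3.31 FPKM, 1.69, adjusted p = 0.0311). Summed ESC markers, which include Zfp42, stood at 4446 to 5278 FPKM in these KO cells and at 5142 to 9112 FPKM in wild type, so that they overlap. Summed trophectoderm markers stood at 57.8 to 112 FPKM in KO cells against 4.41 to 6.80 FPKM in wild type. Summed Obox FPKM was lower in the KO cells with GFP (30.7 to 51.0) than in wild-type cells with GFP (216 to 376), and the part of none of these in the differences was tested.

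The response of Nr1h3 to Obox3 was present in cells without Nr5a2. In Nr5a2 KO cells Nr1h3 was at 5.05 and 2.01 FPKM with Obox3, against 0.682 and 0.330 FPKM with GFP (1.51, adjusted p = 0.0350, with 3.56% of genes called). In wild-type cells it was at 1.71 and 2.54 FPKM with Obox3, against 0.164 and 0.150 FPKM with GFP (1.42, adjusted p = 0.101, with 0.935% of genes called). It was called in a fit of the compared groups alone (adjusted p = 0.0183) and with a replicate block (adjusted p = 0.0258). The test of the difference between the genotypes gave 0.09 (adjusted p = 0.944), and it called 0.102% of genes. The call in KO cells was lost without either GFP library or without Obox3 replicate 1 (1.01 to 1.68, adjusted p = 0.0988 to 0.258), and with equal 75th percentiles (1.34, adjusted p = 0.0501). Obox3 itself was at 2517 and 610 FPKM in the KO cells and at 133 and 353 FPKM in the wild-type cells, so the 2 genotypes differ in Obox3 level too and this cannot be told apart from genotype.

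Obox5 gave no call among the members in this set, and Rarg, Esrrb and Nr2c2 were not called with Obox3. With Obox5, Nr1h3 was at 2.16 and 1.59 FPKM in KO cells (0.94, adjusted p = 0.625, with 0.935% of genes called) and at 1.83 and 1.04 FPKM in wild-type cells (1.05, adjusted p = 0.438, with 0.663% called). The test of the Obox5 response between genotypes called 0.0085% of genes and no member. Rarg was at 5.64 and 1.49 FPKM with Obox3 and at 1.85 and 3.99 FPKM with Obox5 in KO cells, against 0.578 and 0.241 FPKM with GFP (1.54 and 1.43, adjusted p = 0.234 and 0.635). The Obox3 difference of Rarg was called in a fit of the compared groups alone (adjusted p = 0.0373). In wild-type cells Rarg was at 1.45 and 1.78 FPKM with Obox3 and at 10.1 and 2.06 FPKM with Obox5, against 1.59 and 0.577 FPKM with GFP. In KO cells every Obox3 and Obox5 library was above both GFP libraries for Rarg and Nr1h3, with 2 libraries per group. Of these differences Nr1h3 with Obox3 alone was called. Beside these values, summed 2-cell markers stood at 179 to 417 FPKM in KO cells with Obox3, against 9.11 to 89.8 FPKM with GFP.

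All receptors that fell in mzKO embryos at the late 2-cell stage or the 4-cell time were members, and all that rose were other receptors. The members were chosen with earlier results of these data known, so this split is a description and not independent support. The Rarg calls among them were lost under several alternatives. At the late 2-cell stage 27 receptors were tested, 1 rose and 3 fell (14.8%, against 15.5% of all genes), with a median log2 fold change of 0.13 against 0.01 for all genes. At the 4-cell time 5 rose and 4 fell (33.3%, against 24.6% of all genes), with a median of 0.54 against 0.16. The 4 that fell at the 4-cell time are Nr5a2, Rarg, Nr1h3 and Nr2c2. With replicate 3 of both groups left out 4 receptors were called in place of 9. Nr2e1 rose at both times, to 16.3 ± 7.36 FPKM in mzKO late 2-cell embryos against 2.92 FPKM in wild type (2.14, adjusted p = 0.00770), and to 6.57 ± 8.07 FPKM against 0.360 FPKM at the 4-cell time (1.91, adjusted p = 0.0122). Nr6a1 rose at the 4-cell time (14.1 FPKM in mzKO embryos against 5.12 FPKM in wild type, 1.31, adjusted p = 0.0384), and at the late 2-cell stage it was at 24.3 FPKM against 23.6 FPKM. Nr2e1 and Nr6a1 are receptors whose wild-type RNA is lower at the 4-cell than at the early 2-cell or late 2-cell stage.

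**Figure D4:**
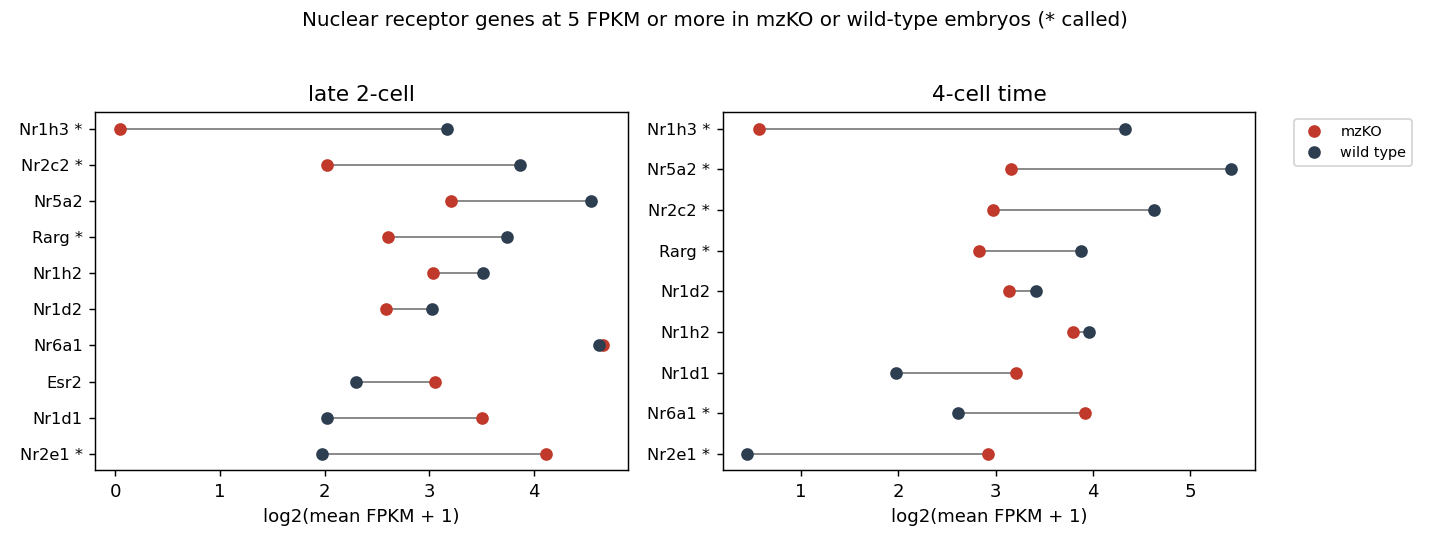
Mean expression, as log2(mean FPKM + 1), of nuclear receptor genes that reached 5 FPKM in mzKO (red) or wild-type (dark) embryos at the late 2-cell stage (10 genes) and the 4-cell time (9 genes), with lines joining the groups and an asterisk for called differences. Nr1h3, Nr2c2, Nr5a2 and Rarg have the largest gaps on the wild-type side, and Nr2e1 has the largest gap on the mzKO side.

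Genes that work with these receptors were described from lists of coregulators, retinoid handling genes, LXR targets, NR5A targets and embryo regulators. Among retinoid genes, Crabp2 and Crabp1, carriers of retinoic acid, rose in mzKO embryos. Crabp2 averaged 70.6 FPKM in mzKO late 2-cell embryos and 5.89 FPKM in wild type (3.24), and 31.0 FPKM against 0.468 FPKM at the 4-cell time (4.44). Crabp1 averaged 19.5 FPKM against 2.55 FPKM at the late 2-cell stage (2.42) and 22.7 FPKM against 0.556 FPKM at the 4-cell time (3.49). In wild type Crabp2 fell from the early to the late 2-cell stage (5.89 FPKM at the late stage against 92.7 FPKM at the early stage, -3.25). Of 8 retinoid genes tested 3 rose at the late 2-cell stage of mzKO embryos (37.5%, against 15.5% of all genes) and 2 at the 4-cell time (25%, against 24.6%, a share close to that of all genes), and none fell. In mKO embryos Crabp2 rose as well (47.8 FPKM against 6.68 FPKM in wild type, 2.53, adjusted p = 0.0443), a call lost with equal 75th percentiles, where 0 of all genes were called.

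LXR targets moved both ways in embryos with almost no Nr1h3. Of 10 tested, 6 rose in wild type from the early to the late 2-cell stage and none fell (60%, against 37.4% of all genes), with a median of 1.42 against 0.72 for all genes. In mzKO late 2-cell embryos 2 rose and 3 fell (50%, against 15.5% of all genes), and at the 4-cell time 4 rose and 2 fell (60%, against 24.6%). Scd1, stearoyl-CoA desaturase, averaged 0.138 FPKM in mzKO late 2-cell embryos and 9.85 FPKM in wild type (-3.25), and 0.491 FPKM against 7.10 FPKM at the 4-cell time (-2.48). It also fell in mKO embryos (1.09 FPKM against 6.92 FPKM in wild type, -1.93, adjusted p = 0.0281), and this call too was lost with equal 75th percentiles. Lpcat3, a phospholipid acyltransferase, averaged 1.98 FPKM in mzKO late 2-cell embryos and 9.02 FPKM in wild type (-1.67). Apoe, a lipid carrier, ran the other way at the 4-cell time, with 44.4 FPKM in mzKO embryos and 4.58 FPKM in wild type (2.31), and Lpl did so at the late 2-cell stage (8.53 against 1.94 FPKM, 1.73). Nr1h2, which encodes LXR beta, was not called in mzKO embryos. It was at 7.19 FPKM against 10.4 FPKM in wild type at the late 2-cell stage, and at 12.9 against 14.6 FPKM at the 4-cell time. A link of these targets to either receptor was not tested.

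Coregulators and embryo regulators were counted in the same way. Of 21 coregulators tested none was called in mzKO late 2-cell embryos, and 6 rose and none fell at the 4-cell time (28.6%, against 24.6% of all genes). Examples are Jazf1, a partner of NR2C2 (38.0 FPKM in mzKO embryos against 5.52 FPKM in wild type, 2.56), Lcor, a ligand-dependent corepressor (11.3 against 1.65 FPKM, 2.20), and Ncoa2, a coactivator (19.0 against 4.27 FPKM, 1.95). Of 19 embryo and ESC regulators, 1 rose and 3 fell at the late 2-cell stage (21.1%, against 15.5% of all genes), and 2 rose and 7 fell at the 4-cell time (47.4%, against 24.6%). Tead4, needed for the trophectoderm, averaged 0.731 FPKM in mzKO embryos at the 4-cell time and 20.5 FPKM in wild type (-3.61). Tfap2c averaged 3.18 FPKM in mzKO embryos and 20.3 FPKM in wild type (-2.35), and Klf2 2.90 FPKM against 25.2 FPKM (-2.78). Of 5 steroid and bile acid genes known as NR5A targets in other tissues none was called at the late 2-cell stage and 1 rose at the 4-cell time.

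Klf17, a regulator expressed in the early mouse embryo, rose with both Obox factors in ESCs. It averaged 13.4 FPKM with Obox3 and 5.87 FPKM with Obox5, against 0.0671 FPKM with GFP (3.66 and 2.67). In Nr5a2 KO cells it averaged 40.2 FPKM with Obox3 and 14.2 FPKM with Obox5, against 0.172 FPKM with GFP (5.15 and 3.65). In wild-type cells of that set it averaged 16.0 FPKM with Obox3 and 13.05 FPKM with Obox5, against 0.0937 FPKM with GFP (3.77 and 3.68). All of these differences were called, in cells with and without Nr5a2. Of 19 receptors tested in the first ESC set, 1 rose with Obox3, Nr1h3, and none was called with Obox5. With the replicate block Nr0b1 fell with Obox3 as well (-1.02, adjusted p = 0.0100).

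Over the 12 group means of the knockout series, Rarg and Nr2c2 had the most alike patterns among the members (Pearson r = 0.986), followed by Nr5a2 and Nr2c2 (0.962) and Nr5a2 and Rarg (0.946). Nr1h3 was less like them (0.822 to 0.877), and Esrrb was unlike all of them (-0.16 to 0.15). These are descriptions over groups that share stages and libraries. Among 9332 genes with a group mean of at least 5 FPKM, the pattern of Nr5a2 was most like those of Enpp3 (0.983), Heatr3 (0.981) and Ei24 (0.980). That of Nr1h3 was most like those of Sardh (0.995) and Fez1 (0.990), and Jmy led for both Rarg (0.992) and Nr2c2 (0.993). For Esrrb, whose highest group mean was 0.541 FPKM, no gene passed 0.739.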

How the data were processed

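The authors deposited FPKM tables of Smart-seq2 libraries, 24143 rows each. Per the submitters' processing notes the tools included StringTie 2.1.2, HISAT2 2.2.1 and Trim Galore 0.6.6, and the build was mm9. The notes do not tie them to files. FPKM sums differed between libraries (37752 to 535770), depth is unknown and whole reads could not be recovered: the most common ratio between 2 libraries covered 0.503% to 4.37% of low values. 27 names turned into dates were left out.

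limma 3.58.1 (R 4.3.3, trend and robust) was fitted on log2(FPKM + 1) for 37 comparisons, without a replicate block. The fits were tested on simulated data. No label says that replicate numbers pair the samples. In the first ESC table all same-numbered libraries correlated (r = 0.28 to 0.67 for Obox3 with GFP), and blocked values of that table stand beside the results they change. In the Nr5a2 ESC set they correlated at r = 0.14 to 0.47. Members and gene lists were chosen with earlier results of these data known. Named genes were the members and, from each list and comparison, called genes at 5 FPKM or more whose libraries do not overlap, largest first. Likeness used the 5 genes of highest r. Alternatives were a pseudocount of 0.1, no filter, 2 rescalings (Rn45s left out with equal FPKM sums; equal 75th percentiles), no trend, the compared groups alone, the replicate block and each library left out.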

Additional observations from a re-analysis of the deposited data

Results flagged for a closer look

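Among 20 combinations of a member and a group of 4 or 5 libraries, 4 had 1 library far from the others. For normally distributed values chance gives about 1 in 20. FPKM values, some of them near 0, need not be so distributed, and members share libraries, so an excess cannot be read from this count. Esrrb was at 0.689 FPKM in replicate 1 of the Obox-- late 2-cell embryos, against 0.107 to 0.158 FPKM in the other replicates of that group. Rarg was at 40.6 FPKM in replicate 4 of the same group, against 29.6 to 30.6 FPKM in the others. Nr1h3 was at 0.410 FPKM in replicate 3 of the ESCs with GFP, against 0 to 0.0551 FPKM in the others. Rarg was at 19.7 FPKM in replicate 4 of the ESCs with Obox3, against 9.92 to 10.8 FPKM in the others. The step of Nr1h3 from the early to the late 2-cell stage differed between mzKO and wild-type embryos by -2.78 on the log2 scale in a test of that difference.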

How the results depend on the processing

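Of 1996 member values under the alternatives, 1915 kept their side of the call rule, 63 lost their call and 18 gained one. No called value reversed, and 122 values that were not called changed sign. The mzKO change of Rarg at the late 2-cell stage lost its call with the Rn45s rescaling (-1.24), equal 75th percentiles (-1.10), no filter (-1.33), the compared groups alone (-1.33) and a pseudocount of 0.1 (-1.57), and ran from -1.73 to -0.76 without single libraries. At the 4-cell time it lost it with the same settings (-0.90, -0.89, -1.22, -1.22 and -1.42) and without both replicate 3 libraries (-0.83), and ran from -1.64 to -0.63. Nr1h3 in Obox-- late 2-cell embryos lost its call with no filter (-1.44), the compared groups alone (-1.44), a pseudocount of 0.1 (-2.20) and the replicate block (-1.33), and ran from -1.74 to -1.22. Nr1h3 in mKO embryos lost it with both rescalings (-1.59 and -1.64) and no filter (-2.14), and ran from -2.55 to -1.72. The mKO rescalings took the calls over all genes from 1331 to 2 and 0. Nr5a2 gained a call at the late 2-cell stage in mzKO embryos with the compared groups alone (-1.36) and the replicate block (-1.36), and in Obox-- embryos with the Rn45s rescaling (-1.14). Called receptors came to 3 for Obox3 and 1 for Obox5 with the replicate block in ESCs, and without single libraries to 1 to 2 and 0 to 1. At the 4-cell time of mzKO embryos they came to 4 without both replicate 3 libraries and to 4 to 10 without single ones, and at the late 2-cell stage to 2 to 5. The causes were not tested. The replicate block raised the genes called from 338 to 663 for Obox3 and from 244 to 475 for Obox5 in ESCs, and in the Nr5a2 set from 240 to 569 for KO against wild type and from 419 to 731 for Obox3 in KO cells. Nr1h3 with Obox3 in wild-type cells of that set gained a call with it (adjusted p = 0.0258), as did Nr2c2 in mzKO embryos of the 4-cell time against wild-type late 2-cell embryos (adjusted p = 0.0298). For Obox-- late 2-cell embryos it took them from 74 to 44. With numbers crossed, chosen after seeing the data, mKO embryos had 2355 calls against 1631 by number, Obox KO MII oocytes 217 against 4 and early 2-cell embryos against MII oocytes 853 against 184. Without both replicate 3 libraries the genes called at the 4-cell time numbered 2048 against 3440. Rescaling moved the median of all genes by 0.58 and 0.52 in mKO embryos and by 0.84 and 0.42 in arrested embryos. Values under 1 FPKM cannot be read as absence, since depth is unknown.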
